A study of Mus musculus with 6 samples.

Results

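The genes described here are 10 targets of Wnt and β-catenin signalling that hepatocytes around the central vein of the liver are known to express, namely Axin2, Lgr5, Rnf43, Znrf3, Tbx3, Glul, Rhbg, Slc1a2, Sp5 and Nkd1. They were taken by symbol from the 19505 named genes of 6 mouse Clariom S arrays. A named probe set existed for 7 of the 10, and Rnf43, Glul and Rhbg were not analysed here. Each of the 7 had a single probe set. Arrays 48, 49 and 50 (AAV-control) came from mice given a control vector, and arrays 51, 52 and 53 (AAV-PIK3CD) from mice given a vector with mouse Pik3cd, the gene of the delta catalytic subunit of PI3K. All mice were male C57BL/6 animals that received an AAV8 vector when 8 weeks old and were killed when 12 weeks old. Both vectors used the thyroxine-binding globulin promoter, which is active in hepatocytes. The control vector carried EGFP in one part of the methods and is named as empty in the labels and in the array methods, so the groups may differ in EGFP as well as in Pik3cd. Tumour is the tissue given by both the sample labels and the paper's array methods, whereas its results describe liver.

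Wnt proteins bind Frizzled and LRP receptors on the cell surface, which stops the destruction complex of Axin, APC and GSK3 from marking β-catenin for degradation. β-catenin then enters the nucleus and activates genes together with TCF factors. In the liver, endothelial cells of the central vein release Wnt2, Wnt9b and R-spondin 3, and the hepatocytes nearest to them respond by making glutamine from ammonium and by expressing a set of feedback regulators. R-spondins bind LGR receptors and thereby remove RNF43 and ZNRF3, the ligases that take Frizzled off the membrane.

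Pik3cd, which checks the labels, read 4.66, 4.34 and 4.48 in AAV-control and 4.78, 5.14 and 4.86 in AAV-PIK3CD (RMA log2 level). The groups did not overlap, and 4.47% of all probe sets were likewise higher without overlap. Pik3cd lay above the array median on 2 of the 6 arrays. Its difference was 0.43 (SE 0.14) or 1.35-fold, with an adjusted p of 0.674 by rank products and 0.932 by limma. All 10 hepatocyte markers lay above the median of every array, albumin (Alb) at 13.19 to 13.30. Array medians ran from 4.81 to 4.87. Array 51 stood apart, since 11 of 12 pancreatic acinar markers were highest in it (list mean 7.59, against 3.82 to 4.03 on the other arrays) and 9 of 10 muscle markers were too. The difference of each measured target without array 51 is given below, and for other genes and lists a range after the word omission is that over the 6 ways to leave out a single array. The arrays measure bulk tissue, in which fewer cells of a type and less RNA per cell cannot be told apart.

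None of the 7 measured targets differed between the groups past the threshold. By rank products, the test named in the study's methods, 0 of 7 passed an adjusted p of 0.05, where 0.0045% of all probe sets passed as higher and 0.036% as lower in AAV-PIK3CD. By limma 0 of 7 passed, as did 0.0% of all probe sets. Before adjustment, Axin2 and Tbx3 had p under 0.05 by rank products, as 5.7% of all probe sets did, and Tbx3 alone did by limma, as 5.08% did. The mean of 5 targets was higher in AAV-PIK3CD (Tbx3, Axin2, Nkd1, Znrf3 and Slc1a2) and that of Lgr5 and Sp5 was lower. The median difference was 0.13 on the log2 scale, against -0.0067 over all probe sets, and it was 0.073 without array 51 and 0.225 without array 50. The groups did not overlap in 1 target, Nkd1, which was higher in AAV-PIK3CD. Over all probe sets 4.47% did not overlap and were higher and 4.97% did not overlap and were lower.

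**Figure D1:**
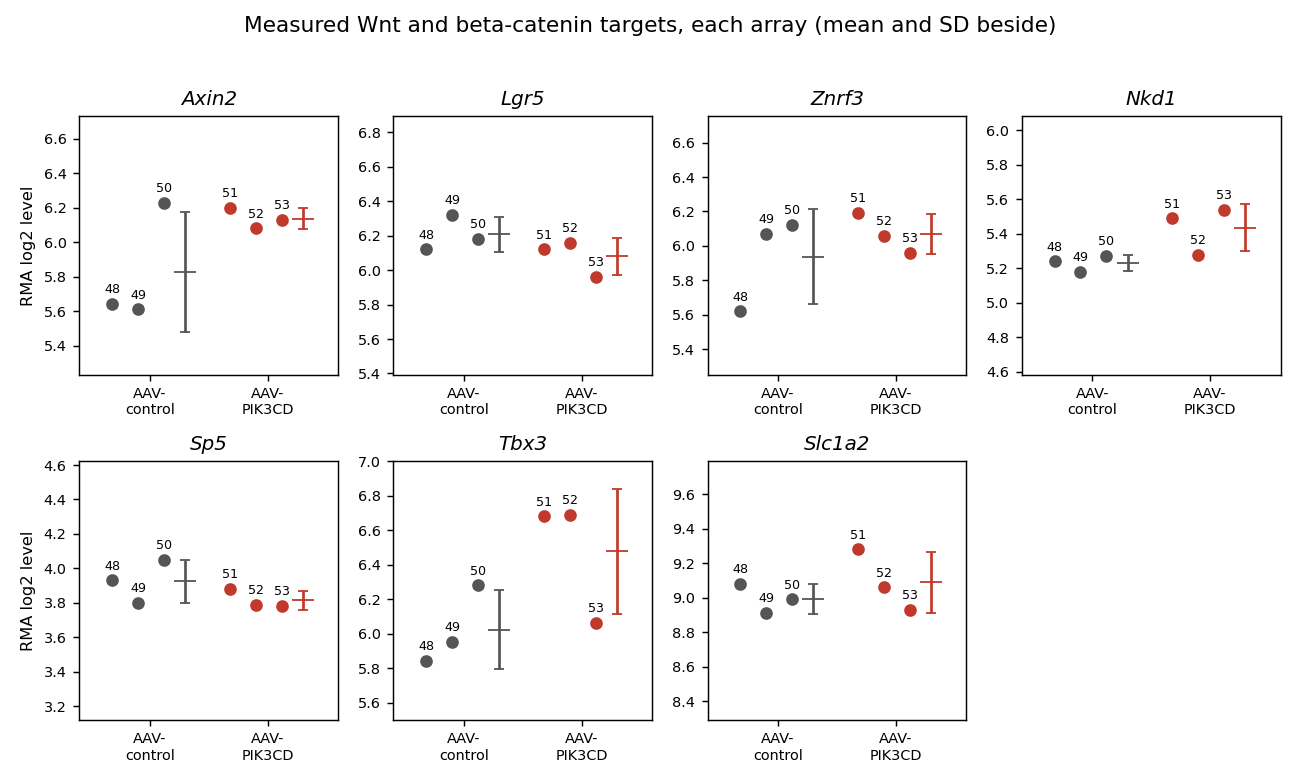
RMA log2 level (y axis, 1.5 log2 units in every panel) of the 7 measured targets on each array, with the array number over each point and the group mean and SD (n = 3) as a bar beside the points. The groups overlap in every panel but that of Nkd1, and Tbx3 is high on arrays 51 and 52.

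Axin2 codes for a scaffold of the destruction complex and is induced by the pathway it restrains. It read 5.64 on array 48, 5.61 on array 49 and 6.23 on array 50, and 6.20, 6.08 and 6.13 on arrays 51, 52 and 53. The 3 AAV-PIK3CD arrays lay close together, while the controls spread over 0.62 and held both the lowest values and the highest. The means were 5.83 ± 0.35 and 6.14 ± 0.06 (SD, n = 3 each), a difference of 0.31 (SE 0.17, 95% interval -0.061 to 0.681) or 1.24-fold. The 2-sided exact permutation test gave p = 0.4, where 0.1 is the smallest value that 3 against 3 can give, with adjusted p-values of 0.861 (rank products) and 0.932 (limma). Without array 50 the difference was 0.51, and with any other array left out it ranged from 0.20 to 0.34 (0.28 without array 51).

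Nkd1 codes for naked cuticle homolog 1, an inhibitor that binds Dishevelled. It read 5.24, 5.18 and 5.27 in AAV-control and 5.49, 5.28 and 5.54 in AAV-PIK3CD. Every AAV-PIK3CD array was above every control, but array 52 exceeded the highest control by the smallest step the deposited decimals allow. The difference was 0.21 (SE 0.12, 95% interval -0.063 to 0.476), with an exact permutation p of 0.1 and an adjusted p of 1 by rank products and 0.932 by limma. It was 0.18 without array 51. After quantile normalization or median centring the groups overlapped, with differences of 0.19 and 0.17.

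Znrf3 codes for one of the membrane ligases that R-spondins remove. It read 5.62, 6.07 and 6.12 in AAV-control and 6.19, 6.06 and 5.96 in AAV-PIK3CD. Array 48 was the lowest, and the other 5 arrays lay between 5.96 and 6.19. The difference of 0.13 (SE 0.15, 95% interval -0.206 to 0.472) turned to -0.025 without array 48 and was 0.073 without array 51.

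Lgr5, a receptor for R-spondins, read 6.12, 6.32 and 6.18 in AAV-control and 6.12, 6.16 and 5.96 in AAV-PIK3CD. The groups overlapped, with array 53 below all controls. The difference was -0.13 (SE 0.12, 95% interval -0.397 to 0.144) and ranged from -0.17 to -0.067 with single arrays left out (-0.15 without array 51).

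Sp5, a zinc finger factor that acts on promoters of other Wnt targets, read 3.93, 3.80 and 4.05 in AAV-control and 3.88, 3.79 and 3.78 in AAV-PIK3CD. These values lay below the median of every array, the only such case among the 7 targets. The difference was -0.11 (SE 0.12, 95% interval -0.377 to 0.157), and it was -0.048 without array 50, -0.17 without array 49 and -0.14 without array 51.

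**Figure D2:**
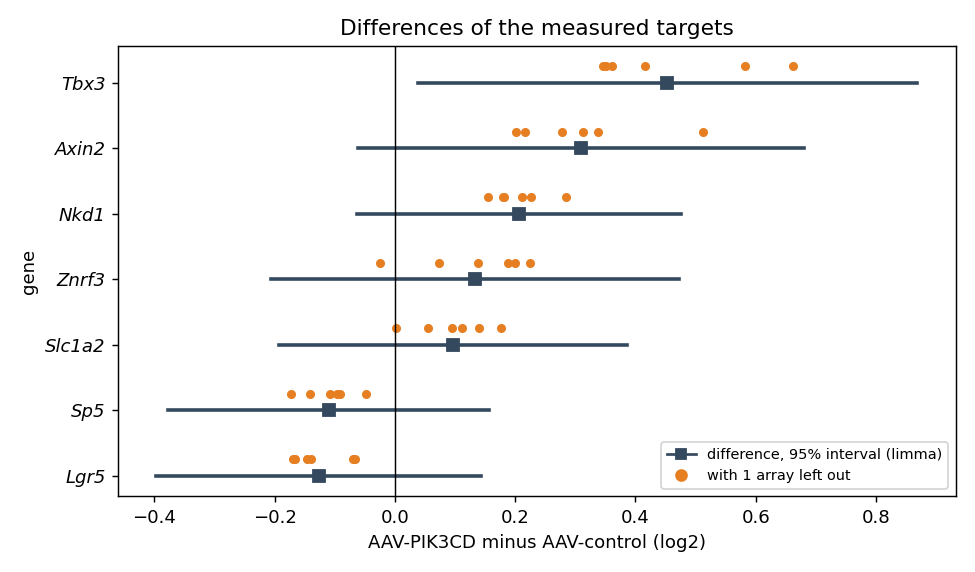
Difference between the group means (x axis, log2, AAV-PIK3CD minus AAV-control) for the 7 measured targets (y axis), with the limma 95% interval as a line and the 6 differences with 1 array left out as dots above it. Only the interval of Tbx3 lies wholly above 0, and only Znrf3 changes sign when an array is left out.

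Promoters are shown for Sp5 and Axin2, feedback targets whose group differences had opposite signs, and for Slc1a2, a metabolic target, to set the letters that TCF factors are known to prefer beside the levels. The windows hold 250 bases before an annotated start and 50 from it (RefSeq, GRCm38.p6, plus strand). Capitals mark the motif CTTTGAT on either strand, or the same letters with the closing AT replaced by AA or by TT or by TA, so that the motif reads AACAAAG or ATCAAAG where it lies on the other strand of the windows printed. Windows were listed for 6 of the 10 targets (Axin2, Sp5, Slc1a2, Nkd1, Glul and Rnf43), and 2 of the 6, Sp5 and Slc1a2, held a match, where 16.9% of all 32851 windows did. Sp5 held 2 matches, as at least 2 did in 1.94% of windows, starting 222 and 104 bases before the start, and Slc1a2 held 1, starting 207 bases before it. The windows printed are the ones listed for each gene, which may have other starts.
Sp5, chr2:70474673-70474972: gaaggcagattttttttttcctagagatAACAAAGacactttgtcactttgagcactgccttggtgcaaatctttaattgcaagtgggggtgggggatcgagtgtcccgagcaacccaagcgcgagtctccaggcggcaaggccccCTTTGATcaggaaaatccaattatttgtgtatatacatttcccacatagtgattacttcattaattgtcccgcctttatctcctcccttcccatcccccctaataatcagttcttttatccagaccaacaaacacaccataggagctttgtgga
Axin2, chr11:108920099-108920398: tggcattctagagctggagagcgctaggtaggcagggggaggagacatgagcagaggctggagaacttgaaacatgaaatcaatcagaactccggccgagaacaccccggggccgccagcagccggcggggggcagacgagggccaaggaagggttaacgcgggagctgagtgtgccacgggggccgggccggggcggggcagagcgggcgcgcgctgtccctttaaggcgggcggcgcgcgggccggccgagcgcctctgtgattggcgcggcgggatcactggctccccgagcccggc
Slc1a2, chr2:102706188-102706487: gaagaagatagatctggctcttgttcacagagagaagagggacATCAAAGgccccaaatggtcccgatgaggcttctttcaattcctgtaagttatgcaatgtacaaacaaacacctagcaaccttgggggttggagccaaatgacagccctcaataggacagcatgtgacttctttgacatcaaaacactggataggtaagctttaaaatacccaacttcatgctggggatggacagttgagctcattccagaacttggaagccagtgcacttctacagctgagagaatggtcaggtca
The Axin2 window has no capitals, which says only that these letters are not in this window. Of the targets whose windows hold a match, Sp5 differed by -0.11 and Slc1a2 by 0.10, and of those measured whose windows hold none, Axin2 differed by 0.31 and Nkd1 by 0.21. None of the 4 passed the threshold.

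Tbx3 codes for a T-box transcription factor that depends on β-catenin in liver. It read 5.84, 5.95 and 6.28 in AAV-control and 6.68, 6.69 and 6.06 in AAV-PIK3CD. Arrays 51 and 52 were above all controls and array 53 lay among them. The means were 6.02 ± 0.23 and 6.48 ± 0.36 (SD, n = 3 each), a difference of 0.45 (SE 0.19, 95% interval 0.038 to 0.869) or 1.37-fold, the largest among the 7 targets. Of all probe sets 1.35% differed by at least as much in either direction. The exact permutation test gave p = 0.2, with adjusted p-values of 0.61 (rank products) and 0.932 (limma). Without array 53 the difference was 0.66 and without array 51 it was 0.35. Dmbt1, a mucin-like protein in the list of bile duct markers, was also high on arrays 51 and 52, at 6.49 and 8.38. It read 3.42 on array 53 and 3.27 to 3.68 on the controls. The list mean of the pancreatic acinar markers was 7.59 on array 51 and 4.03 on array 52. The part of acinar tissue in the Dmbt1 values was not tested. Of the 8 measured bile duct markers all 8 had a higher mean in AAV-PIK3CD, with list means of 4.18 to 4.75 against 3.79 to 3.93, but the groups overlapped in each of the 8 and none was above the array median on all 6 arrays. Without Dmbt1 the means of the other 7 were 3.85, 3.96 and 4.02 on the control arrays and 3.97, 4.23 and 4.28 on arrays 51, 52 and 53, so array 51 fell among the controls. Before adjustment 3 of the 8 had p under 0.05 by rank products and 2 by limma, where 5.7% and 5.08% of all probe sets did. Dmbt1 had an adjusted p of 0.0167 by rank products and 0.932 by limma. Epcam read 3.53, 3.98 and 3.60 against 3.94, 3.98 and 4.80, a difference of 0.54 (SE 0.22, adjusted p 0.439 by rank products). Krt19, the keratin that marks bile ducts, read 3.80, 4.21 and 3.85 against 3.75, 4.18 and 4.42, so it was not high on array 51. The part of the bile duct markers in the Tbx3 values was not tested.

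Slc1a2 codes for a glutamate transporter of pericentral hepatocytes, which brings in the glutamate from which glutamine is made. It read 9.08, 8.91 and 8.99 in AAV-control and 9.28, 9.06 and 8.93 in AAV-PIK3CD. The groups overlapped, and array 51 alone was above all controls. The difference of 0.10 (SE 0.13, 95% interval -0.192 to 0.386) was 0.0017 without array 51.

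The 7 targets did not move as a block across the arrays. Array 50 was the highest for Axin2 and Sp5, array 51 for Znrf3 and Slc1a2, array 49 for Lgr5, array 52 for Tbx3 and array 53 for Nkd1. Array 49 was the lowest for 3 targets, and arrays 48 and 53 for 2 each. The median SD within groups was 0.14 over the 7 targets, against 0.17 over all probe sets. For 6 of the 7 the 95% interval of the difference held 0.

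The signals that act upstream were read from lists of the other pathway genes. Of the 19 Wnt ligands, 0 passed rank products or limma, 3 did not overlap and were higher in AAV-PIK3CD, and 0 did not overlap and were lower. Over all probe sets 4.47% did not overlap and were higher, and 4.97% did not overlap and were lower. Before adjustment, Wnt6 and Wnt7a had p under 0.05 by rank products, as 5.7% of all probe sets did. By limma Wnt6, Wnt7a and Wnt9b did, as 5.08% of all probe sets did, and these were also the 3 without overlap. Wnt9b, one of the ligands of the central vein, read 6.07, 5.91 and 5.97 in AAV-control and 6.31, 6.24 and 6.22 in AAV-PIK3CD. All 3 AAV-PIK3CD arrays were above all controls, and the difference was 0.27 (SE 0.12, 95% interval 0.018 to 0.528), with an adjusted p of 0.95 by rank products and 0.932 by limma. It ranged from 0.24 to 0.32 with single arrays left out. Wnt2, the other central vein ligand, read 4.82, 4.63 and 4.51 against 5.02, 4.66 and 4.62, groups that overlapped, and its difference of 0.11 was -0.013 without array 51. Wnt2 lay above the array median on 1 of the 6 arrays. Wnt6 differed by 0.34 (SE 0.13) and Wnt8a by -0.18 (SE 0.21, omission -0.385 to 0.0033), and Wnt7a, named after its values were seen, by 0.35 (SE 0.12). Wnt8a lay below the median of every array.

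The list of R-spondins and Wnt secretion factors had 5 of 6 genes with a higher mean in AAV-PIK3CD and a median difference of 0.13 (omission 0.083 to 0.198). Neither test called any of the 6 (0 by rank products and 0 by limma). Before adjustment Rspo2 and Rspo4 had p under 0.05 by each, as 5.7% of all probe sets did by rank products and 5.08% by limma. Of the 6, 3 did not overlap and were higher, as 4.47% of all probe sets were. Rspo3, the R-spondin of the central vein, read 6.62, 6.50 and 6.53 in AAV-control and 6.58, 6.44 and 6.41 in AAV-PIK3CD, which overlapped, with a difference of -0.07 (SE 0.12, omission -0.125 to -0.038). The 3 without overlap were Rspo1, Rspo2 and Rspo4, and Rspo1 and Rspo2 were named after their values were seen. Rspo4 read 4.64, 4.87 and 5.01 against 5.28, 5.25 and 5.15, a difference of 0.39 (SE 0.13). Rspo2 read 3.87, 3.91 and 3.91 against 4.26, 4.16 and 4.42, a difference of 0.38 (SE 0.12) at levels below the array median. Rspo1 read 6.05, 6.07 and 6.04 against 6.16, 6.27 and 6.20, a difference of 0.16 (SE 0.11). The p adjusted after rank products was 0.824 for Rspo4, 0.83 for Rspo2 and 1 for Rspo1, and by limma 0.932, 0.932 and 0.936. These 3 groups of values also did not overlap after quantile normalization or median centring.

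**Figure D3:**
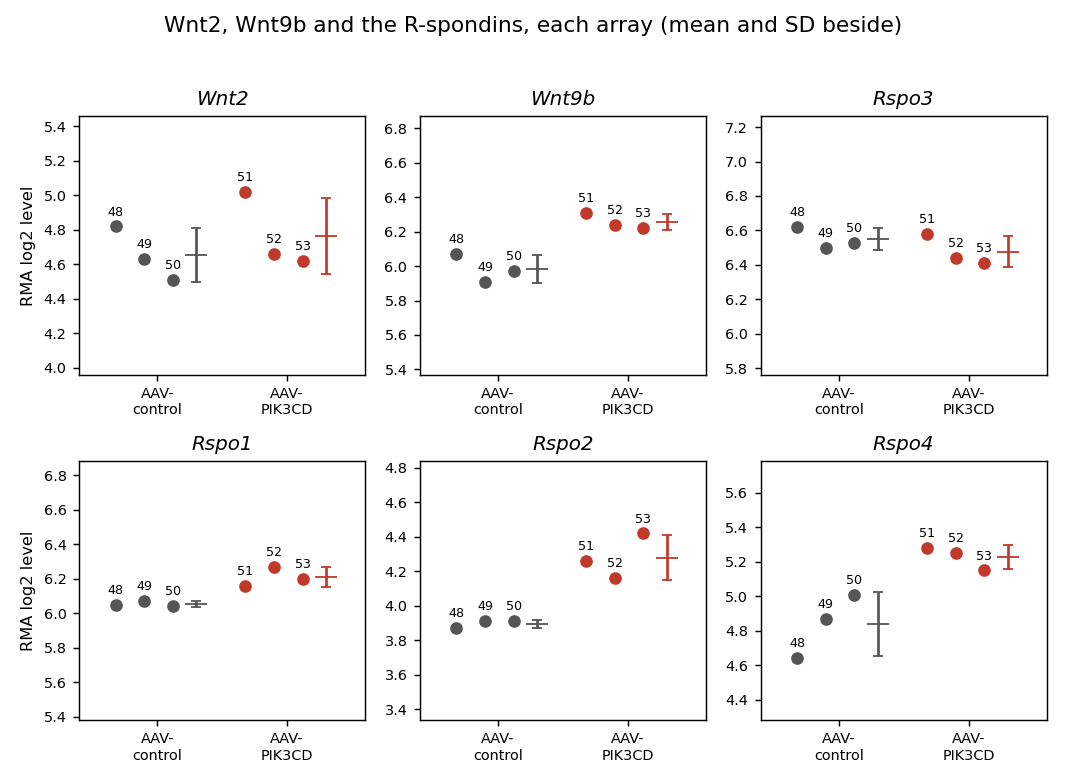
RMA log2 level (y axis, 1.5 log2 units in every panel) of Wnt2, Wnt9b and the 4 R-spondins on each array, with the array number over each point and the group mean and SD (n = 3) beside the points. The groups do not overlap for Wnt9b, Rspo1, Rspo2 and Rspo4, and they overlap for Wnt2 and Rspo3.

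Further along the pathway no gene passed either test. Of all probe sets 5.7% had p under 0.05 before adjustment by rank products and 5.08% by limma. Of the 17 receptors 13 had a lower mean in AAV-PIK3CD, with a median difference of -0.10 (omission -0.155 to -0.05), and 0 passed either test (Fzd8 alone had p under 0.05 by rank products before adjustment, and 0 did by limma). Fzd8, a Frizzled receptor, differed by -0.32 (SE 0.22, omission -0.53 to -0.12), Fzd6 by 0.24 (SE 0.15, omission 0.12 to 0.36) and Lgr4, the R-spondin receptor that hepatocytes share across the lobule, by -0.10 (SE 0.13, omission -0.20 to -0.05). Of the 12 measured genes of the relay and destruction complex 11 had a lower mean, with a median of -0.078 (omission -0.113 to -0.043) and 0 called at any of these thresholds. Dvl1, a Dishevelled adaptor, differed by -0.19 (SE 0.19, omission -0.42 to -0.053) and Tnks2, a tankyrase that promotes the breakdown of Axin, by 0.16 (SE 0.14, omission 0.077 to 0.24). Ctnnb1, the gene of β-catenin, was not analysed here. Of the 10 TCF factors and partners 0 passed, and before adjustment 1 (Pygo2) had p under 0.05 by rank products and 0 by limma. Pygo2, which links β-catenin to chromatin, differed by -0.25 (SE 0.24) and by 0.088 without array 52, and Pygo1 by 0.14 (SE 0.18) and by -0.023 without array 52. Pygo1 lay below the median of every array. Of the 15 Wnt inhibitors 10 had a higher mean, with a median of 0.063 (omission 0.032 to 0.103) and 0 called. The smallest rank products p in each direction belonged to the soluble Frizzled-related protein Sfrp5 at 0.26 (SE 0.14, omission 0.15 to 0.37) and to Dkk2 at -0.18 (SE 0.15, omission -0.265 to -0.045). Both genes lay below the median of every array.

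Of 10 general Wnt targets 0 passed, and before adjustment Mmp7 and Myc had p under 0.05 by rank products and Mmp7 by limma. Mmp7, the protease matrilysin, read 3.16, 3.24 and 2.95 in AAV-control and 3.58, 3.71 and 3.34 in AAV-PIK3CD. Its groups did not overlap and its difference was 0.43 (SE 0.14), with an adjusted p of 0.747 by rank products and 0.932 by limma, at levels below the array median. Myc differed by -0.24 (SE 0.25) and by 0.0067 without array 53. Over the 89 measured genes of these 7 pathway lists, 0 passed rank products or limma. Before adjustment 8 had p under 0.05 by rank products and 6 by limma, where 5.7% and 5.08% of all probe sets did. The median difference of -0.037 turned to 0.0083 without array 50 and was -0.0017 without array 53. In 8 of the 89 the groups did not overlap and AAV-PIK3CD was higher, as in 4.47% of all probe sets. In 1, Tcf7l1, it was lower (-0.16, SE 0.12), as in 4.97% of all probe sets, and this gene was named after its values were seen. Array 50 was the highest array for 24 of the 89, or 27.0%, where it was so for 22.5% of all probe sets.

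**Figure D4:**
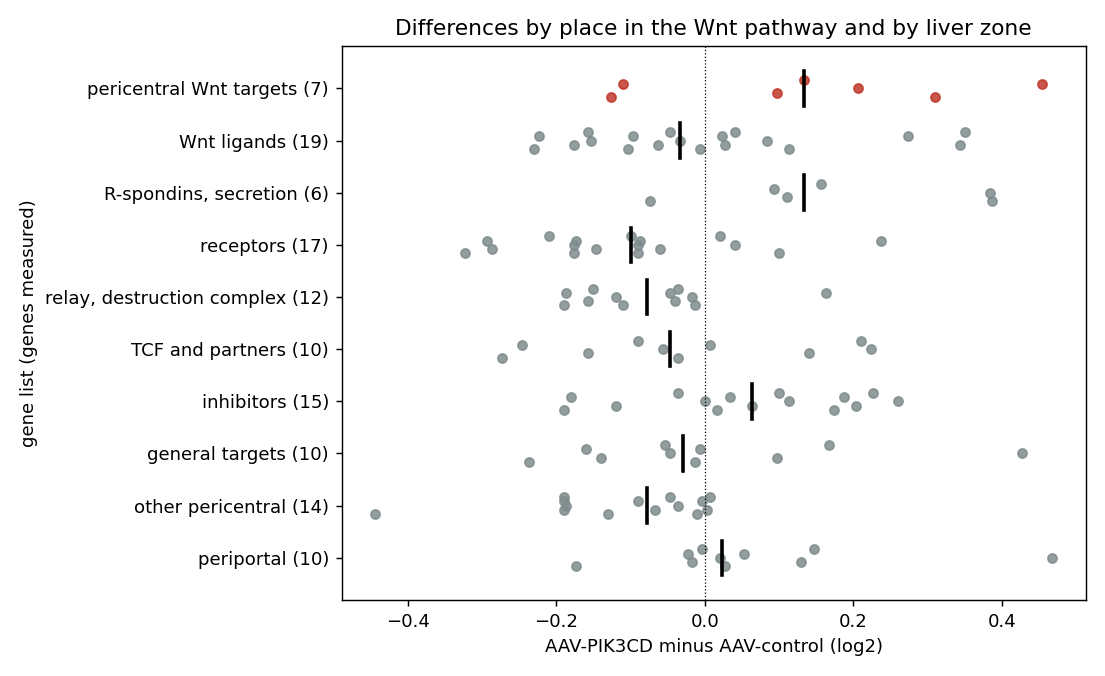
Difference between the group means (x axis, log2, AAV-PIK3CD minus AAV-control) of every measured gene, by list (y axis, with the number of genes), each dot a gene and each black bar the median of its list; dots are spread vertically for legibility. The median is 0.13 for the 7 pericentral Wnt targets, -0.10 for the receptors and -0.078 for the other pericentral genes.

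Pericentral genes that do not belong to the 10 targets gave another view of the zone. Of 14 measured, 12 had a lower mean in AAV-PIK3CD, the median difference was -0.078 (-0.182 without array 49, -0.042 without array 48, -0.045 without array 51), and 0 passed either test (Cyp7a1 alone had p under 0.05 by rank products before adjustment, and 0 did by limma). Of all probe sets 5.7% had such a p by rank products and 5.08% by limma. The abundant enzymes differed by little. Cyp2e1, which oxidises ethanol, differed by -0.05 (SE 0.12, omission -0.09 to -0.0017), Cyp1a2, an inducible cytochrome, by -0.0033 (SE 0.12, omission -0.07 to 0.08), and Oat, which breaks down ornithine, by -0.07 (SE 0.16, omission -0.22 to 0.018). Cyp7a1, the rate-limiting enzyme of bile acid synthesis, read 10.16, 10.03 and 10.40 in AAV-control and 10.29, 9.26 and 9.71 in AAV-PIK3CD. Arrays 52 and 53 were below all controls and array 51 was among them, and the difference of -0.44 (SE 0.22) had an adjusted p of 0.54 by rank products and 0.932 by limma. It was -0.20 without array 52 and -0.71 without array 51. Cyp27a1, a sterol hydroxylase, differed by 0.0067 (SE 0.12, omission -0.035 to 0.045).

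Of 10 measured periportal genes, which mark the opposite end of the lobule, 6 had a higher mean in AAV-PIK3CD, the median was 0.023 (-0.037 without array 48 and 0.059 without array 51), and 0 passed either test (before adjustment 1, Pck1, by rank products and 0 by limma). Of all probe sets 5.7% had p under 0.05 before adjustment by rank products and 5.08% by limma. Pck1, an enzyme of glucose production, differed by 0.47 (SE 0.23, adjusted p = 0.626 by rank products), and by 0.19 without array 50. Ctsc, a lysosomal protease, differed by -0.17 (SE 0.15, omission -0.31 to -0.082) and Cyp2f2, a periportal cytochrome, by 0.03 (SE 0.12, omission -0.018 to 0.072). The mean of the pericentral list minus that of the periportal list, which has meaning only between arrays, was -0.91, -1.31 and -1.02 on arrays 48, 49 and 50 and -1.18, -1.34 and -1.25 on arrays 51, 52 and 53. The groups overlapped through array 49.

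Of 9 further genes that handle glutamine, glutamate or ammonium, 0 passed either test (before adjustment 1, Rhcg, by rank products and 0 by limma), and the median difference was 0.077 (omission 0.018 to 0.113). Of all probe sets 5.7% had p under 0.05 before adjustment by rank products and 5.08% by limma. Slc1a3, a glutamate transporter, differed by 0.19 (SE 0.14, omission 0.12 to 0.32) and Rhcg, an ammonium transporter, by -0.34 (SE 0.16, omission -0.51 to -0.25), both at levels below the array median.

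Markers of other cells were read beside the targets. The list mean for sinusoidal endothelial cells was 6.86 to 7.06 in AAV-control and 6.83 to 6.93 in AAV-PIK3CD, for central vein endothelium 4.51 to 4.52 and 4.30 to 4.70, for stellate cells 6.36 to 6.43 and 6.41 to 6.47, and for Kupffer cells 6.69 to 7.02 and 6.63 to 6.90. These ranges overlapped. Of the 10 sinusoidal markers 2, Lyve1 and Cdh5, were lower in AAV-PIK3CD without overlap, as 4.97% of all probe sets were. Their differences were -0.35 (SE 0.15) and -0.15 (SE 0.11), and 0 of the 10 passed either test. Lyve1 by both tests and Stab1 by limma had p under 0.05 before adjustment, and these 3 were named after their values were seen. Of all probe sets 5.7% had such a p by rank products and 5.08% by limma. Of the 5 central vein markers Selp alone had p under 0.05 before adjustment, by both tests, with a difference of -0.41 (SE 0.18). None of the 5 passed either test or lay above the array median on all 6 arrays. Selp was also named after its values were seen. The part of these endothelial markers in the Wnt9b and Rspo3 values was not tested. The list mean of 7 adipocyte markers was 5.21 on array 48, the array on which Znrf3 and Tbx3 were lowest and Axin2 was next to lowest, 4.75 on array 51 and 4.27 to 4.36 on the others. Of the 7 markers 4 were highest on array 48. Array 51, next highest for the list, was the highest for Znrf3. Without array 48 the difference was -0.025 for Znrf3, 0.36 for Tbx3 and 0.22 for Axin2. The part of adipocytes in these values was not tested.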

How the data were processed

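Total RNA (100 ng per array) was hybridised to Clariom S mouse arrays, and the deposited values are log2 levels that the authors normalised by RMA, with 2 decimals. RMA equalises the arrays' distributions, so a shift shared by most genes cannot be seen. The software version is not given in the sources used here. Arrays have no read depth, and 3 per group limits the precision. No values from the study's own comparisons were used.

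All 22206 probe sets entered the tests. A platform table named 19572 of them. For a gene with several sets (55 symbols) the one with the highest mean was used. Groups followed the labels, which do not say whether samples came from separate animals. The limma and permutation p-values therefore measure only the spread between these samples. The rank products p sets the ranks of a gene against those of shuffled genes, and not against its own spread between samples. Rank products over 9 pairs of arrays used 1000 seeded shuffles of gene order, with Benjamini-Hochberg adjustment over all probe sets at 0.05. limma 3.58.1 (R 4.3.3, lmFit and eBayes) gave standard errors, 95% intervals and a second test. Rank products and limma were tested on simulated data. Single values had 2-sided exact permutation tests. Differences are AAV-PIK3CD minus AAV-control. The other steps ran in Python 3.11.15 (pandas 2.3.3, numpy 2.4.6, scipy 1.17.1, with matplotlib 3.10.9 for plots). Promoter windows came from RefSeq (GRCm38.p6).

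The targets and lists were chosen with earlier results of these data known. From each pathway, zone or glutamine list the gene with the smallest rank products p in each direction was named, along with Pik3cd, Ctnnb1, Wnt2, Wnt9b, Rspo3, Lgr4, Cyp2e1, Cyp1a2, Oat and Cyp2f2, and any other gene was named after its values were seen. Markers of neutrophils, lymphocytes and pancreatic islets had list means of 3.86 to 3.93, 3.86 to 4.03 and 3.84 to 3.99 in AAV-control and 3.82 to 3.90, 3.92 to 4.16 and 3.90 to 4.06 in AAV-PIK3CD. Alternatives were limma, the methods' t-test, both quantile normalization and median centring, filters on the 25% or 50% of probe sets with the lowest means, a single probe set for every symbol, and omission of single arrays.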

Additional observations from a re-analysis of the deposited data

How the results depend on the processing

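The count of targets past the threshold was 0 under every alternative run: limma, the methods' t-test (0 at an unadjusted p under 0.05 as well, as 4.77% of all probe sets had, and 0 of all probe sets after adjustment), both scalings, both filters on dim probe sets, a single set for every symbol, and omission of any single array. The lowest adjusted p of a target by rank products was then 0.397, without array 53. Directions of the 7 targets held under these settings except that of Znrf3, which ranged from -0.025 (without array 48) to 0.225 with single arrays left out. The median difference was 0.16 with quantile normalization, 0.10 with median centring, 0.17 over the 6 targets that the filter at 50% kept, and 0.073 to 0.225 with single arrays left out. The count of targets whose groups did not overlap was 0 with quantile normalization and 0 with median centring. It was 1 to 3 with single arrays left out (3 without array 50, 1 without 52 and 2 without any other), where fewer arrays make overlap rarer. The share of all probe sets without overlap under these omissions is not given here, so these counts are not read as a result about the targets. Over all probe sets rank products gave 9 calls, limma 0, and rank products 3 to 16 with single arrays left out (4 without array 48, 6 without 49, 5 without 50, 16 without 51, 5 without 52 and 3 without 53). Among the pathway, zone and marker lists rank products gave 1 call (Dmbt1), limma 0, and rank products 0 to 1 with single arrays left out, with 0 without array 51 and without array 52. The causes of these shifts were not tested. Pik3cd differed by 0.33 to 0.52 with single arrays left out, 0.40 with quantile normalization and 0.40 with median centring. Over the 89 pathway genes, quantile normalization left 8 higher and 3 lower without overlap and median centring 7 and 3. These scalings of Wnt6, Wnt7a, Wnt9b and the R-spondins were chosen after seeing the data and turned no direction. No target had several probe sets, so the alternative of a dimmer set was not run. No paired analysis was possible because the labels give no pairing of the samples. Sp5 lay below the array median, where signal over background is weakest.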
